A study of Danio rerio with 21 samples.

Results

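Collagens form triple-helical proteins that give tissue its tensile strength. The abundant fibrillar collagens build the bulk of a scar, whereas the minor fibrillar chains regulate how fibrils assemble, and other collagens coat fibrils, form networks or anchor epithelia to the basement membrane beneath them. Followed here were 8 collagen genes outside the abundant type I group, picked by Ensembl ID out of the 31953 genes of the count table: col7a1 (ENSDARG00000021720), col9a2 (ENSDARG00000024492), col17a1b (ENSDARG00000079011), col10a1b (ENSDARG00000101535), col11a1a (ENSDARG00000026165), COL26A1 (ENSDARG00000079330), col27a1b (ENSDARG00000099930) and col5a3b (ENSDARG00000101816). Only col7a1 and col17a1b encode proteins of the epithelial basement membrane zone. The other members are minor fibrillar, fibril-associated or network-forming collagens, and the type IV chains of the basement membrane sheet are not among them. The members are in the authors' gene lists, drawn from the 1 dpi libraries analysed again below. A table of Ensembl IDs also names 7 of the 8. Their values at 1 dpi (dpi, days post injury) are therefore a description and not independent evidence. Results at 5 and 14 dpi were also known when the members were chosen.

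RNA came from biotin-tagged nuclei of adult zebrafish hearts, allele ox133, a TgBAC line with the constructs mpeg1:BirA-Citrine and bactin:Avi-Cerulean-Rangap. Every group, sham included, carried both transgenes, in which regulatory sequence of the macrophage gene mpeg1 drives the biotin ligase BirA and the ubiquitous bactin promoter drives an Avi-tagged nuclear envelope protein. Ventricles were exposed without injury (sham), frozen at the surface with a cryoprobe (cryoinjury) or trimmed at the apex (resection). The 21 libraries formed 8 groups, with 3 shams, 2 cryoinjuries and 3 resections at 1 dpi, 2 of each at 5 dpi, and 4 shams and 3 cryoinjuries at 14 dpi. Libraries are named by group and by the replicate number in the labels, so that 1 dpi cryoinjury has replicates 2 and 3. At 14 dpi shams 1 to 3 of round 1 and sham 3 of round 2 faced cryoinjury 1 to 3 of round 2, so round and injury overlap. Separate hearts are not named in the labels, and p-values measure the spread between these libraries.

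Depth ranged from 10577395 to 61141100 counts per library, and 3 counts, taken as the floor, corresponded to 0.0494 to 0.224 CPM (counts scaled to library size after TMM normalisation). The 1 dpi sham libraries detected 12608 to 14075 genes and the 1 dpi resection libraries 20122 to 21742, from fewer counts. As to the macrophage label, 6 of 8 macrophage marker symbols were matched, mpeg1 itself not among them, and their 11 IDs summed to 65.3 to 933 CPM over the libraries. The 3 cardiomyocyte markers summed to 9478 to 105535 CPM in the same libraries, as counts not corrected for gene length. In such bulk samples, fewer cells of a type and less RNA per cell cannot be told apart.

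Across the 21 libraries the members were mostly rare transcripts. col27a1b was above the floor in 19 libraries, col17a1b in 14, col9a2 in 13, col10a1b, col11a1a and COL26A1 in 12 each, col7a1 in 8 and col5a3b in 5. All 8 members were above the floor in each 1 dpi resection library, against 1 to 3 of them in the 1 dpi shams. Elsewhere between 2 and 6 members were detected per library. Injured libraries at 1 dpi held 99.0% of all col7a1 counts, 94.3% of those of col17a1b, 89.6% of col5a3b, 86.7% of col9a2 and 77.8% of col11a1a. The share was 41.2% for col10a1b, 24.3% for COL26A1 and 17.5% for col27a1b. These are shares of raw counts, not corrected for depth, which was 16213475 to 46558547 counts in the injured 1 dpi libraries. They were not set against the share over all genes, so no gene is placed by them in shams or on later days.

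**Figure D1:**
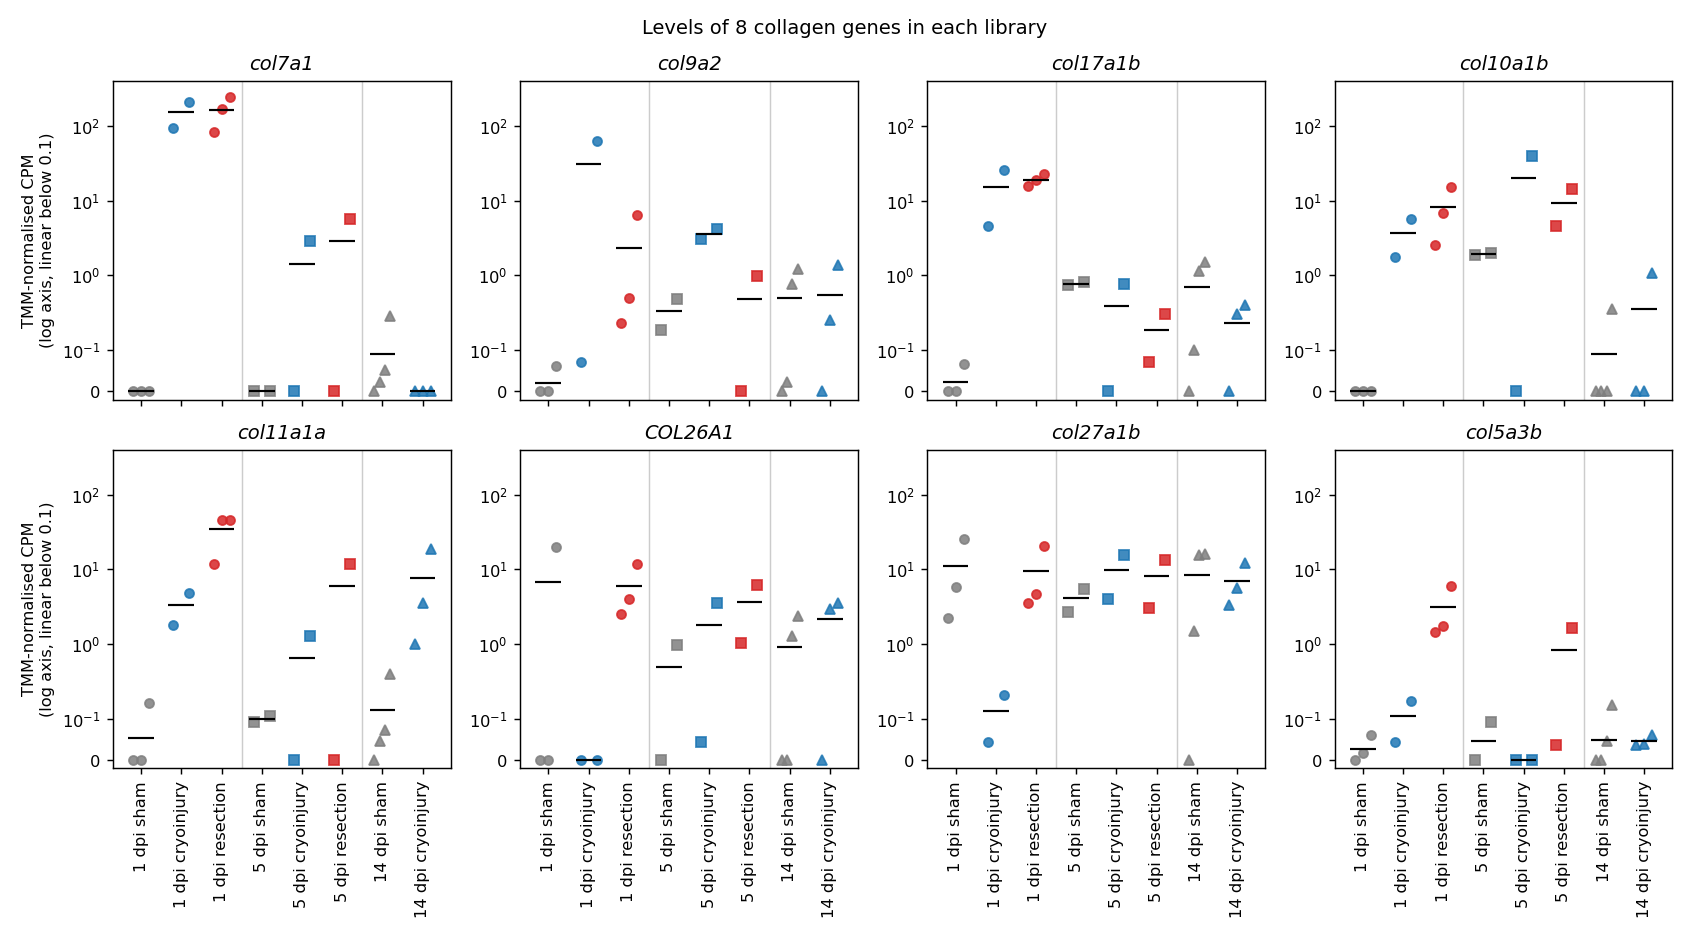
Level of each of the 8 collagen genes in every library, as TMM-normalised CPM on a log axis that is linear below 0.1, by group; grey points are sham, blue cryoinjury and red resection, circles 1 dpi, squares 5 dpi and triangles 14 dpi, and black lines are group means. col7a1 stands between 83.3 and 241 CPM in the 5 injured libraries of 1 dpi and at or under 5.70 CPM in all others. For col27a1b the group mean is lowest in 1 dpi cryoinjury (0.126 CPM), while the lowest single library is a 14 dpi sham, at 0.

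Which collagens differed from sham was asked for each injury and day. The quasi-likelihood test of edgeR was run over all genes passing its filter on low counts (genes that passed are called tested), with Benjamini-Hochberg adjustment over all of them and a threshold of 0.05. At 1 dpi, 5 of 7 tested members were higher after resection (col7a1, col17a1b, col10a1b, col11a1a and col5a3b), where 11.3% of all genes tested were higher, and the same 5 had every resection library above every sham, as did 26.2% of all genes. After cryoinjury 1 of 5 tested members, col7a1, was higher, where 0.138% of all genes were. Of these 5, 3 had an unadjusted p under 0.05 and were higher, against 4.1% of all genes, and 4 had both cryoinjury libraries above every sham, against 15% of all genes. At 5 dpi no member passed, 0 of 4 tested after resection and 0 of 5 after cryoinjury, where 0% of all genes passed in either direction. In edgeR 0 members had an unadjusted p under 0.05 in either comparison, against 0.746% of all genes higher and 2.52% lower after resection and 1.18% higher and 2.44% lower after cryoinjury, and DESeq2 called 0 in both. At 14 dpi 0 of 4 tested members passed in edgeR, where again 0% of all genes did, 1 member (col11a1a) had an unadjusted p under 0.05, and DESeq2 called that 1 member, with 94 of 15020 genes in all. The resection count at 1 dpi rested on every library. Without sham 1, 2 or 3 it was 1, 2 or 1, and without resection 2, 3 or 4 it was 1, 0 or 0, while calls over all genes went from 2154 to between 0 and 177.

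**Figure D2:**
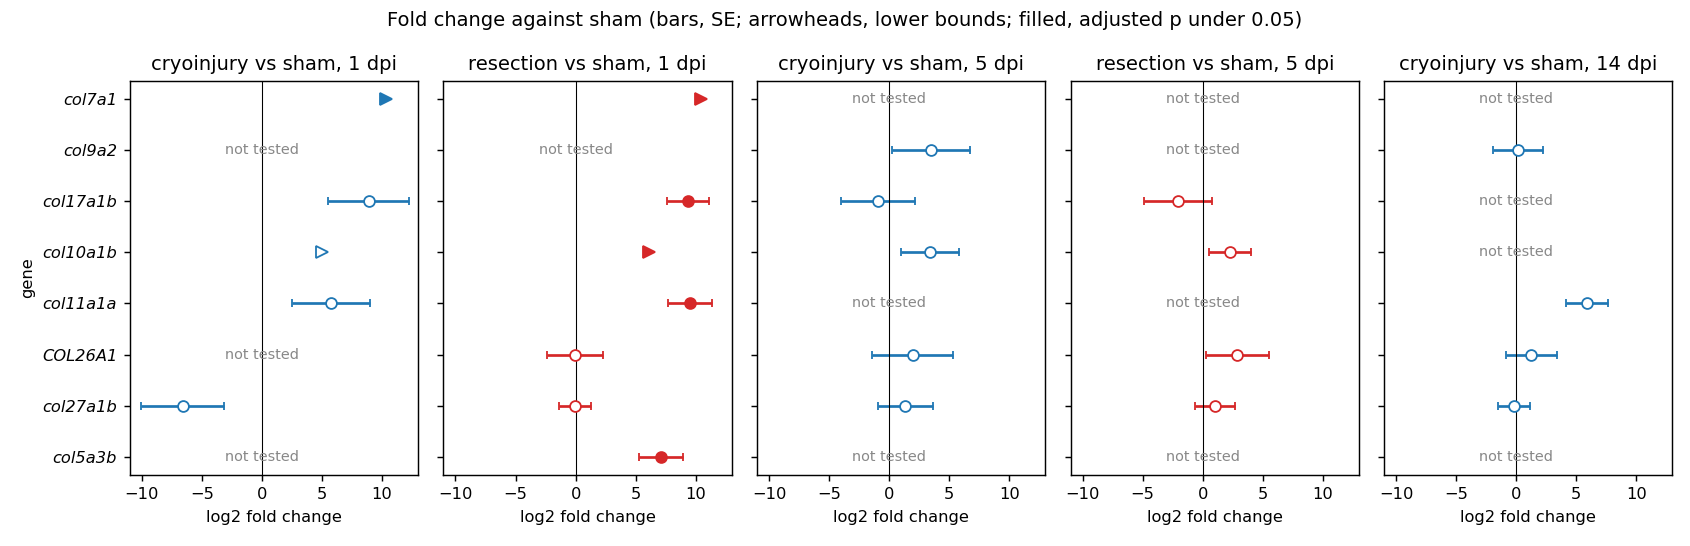
Log2 fold change against sham for the 8 collagen genes in the 5 comparisons of injury with sham; circles with bars are fitted values with SE, arrowheads are lower bounds where every sham was at 0, filled symbols have an adjusted p under 0.05 (edgeR), and genes under the count filter are marked as not tested. Filled symbols appear at 1 dpi only, 5 after resection and 1 after cryoinjury, and col11a1a at 14 dpi stands at 5.89 with an SE of 1.73.

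Type VII collagen, encoded by col7a1, forms the anchoring fibrils that fasten an epithelium to the tissue under it. In the 1 dpi shams col7a1 was at 0 in all 3 libraries. It reached 212 and 92.6 CPM in 1 dpi cryoinjury 2 and 3, and 83.3, 241 and 170 CPM in 1 dpi resection 2, 3 and 4. Both injuries lay far above every sham and their ranges overlapped each other. Against the floor of 3 counts per sham library, the mean was at least 1405-fold higher after resection (edgeR adjusted p = 0.0132, higher in 3 of 3 libraries) and at least 1296-fold higher after cryoinjury (edgeR adjusted p = 0.00166, 2 of 2). The cryoinjury call held in each of 10 alternative settings and the resection call in 9 of 11, being lost without resection 3 or resection 4 (highest adjusted p = 0.0942). Resection and cryoinjury differed by a log2 value of 0.21 (SE 0.53, edgeR adjusted p = 0.827).

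At 5 dpi col7a1 was at 0 in both shams. One library of each injury kept a signal, resection 1 with 5.70 CPM (161 counts) and cryoinjury 4 with 2.85 CPM (67 counts), while resection 2 and cryoinjury 1 were at 0. The injured groups thus overlapped sham, and col7a1 was not tested against sham at 5 dpi. Between resection and cryoinjury its log2 difference was 1.045 (SE 3.04, unadjusted p = 0.74, edgeR adjusted p = 1), smaller than its error. By 14 dpi all 3 cryoinjury libraries were at 0, and the shams had 0.0235, 0.0501 and 0.286 CPM in round 1 and 0 in round 2. The cryoinjury effect on col7a1 differed between 14 and 1 dpi in an interaction test (edgeR adjusted p = 0.00472), lower at 14 dpi, where 0.0447% of all genes tested were lower. Without 1 dpi cryoinjury 2 that adjusted p was 0.0601. The interaction call also depends on 1, 1 and 4 counts in the round 1 shams, as the 1 dpi shams and 14 dpi cryoinjury were at 0. Of the relatives named col7a1l, ENSDARG00000069692 reached 21.8 CPM in 5 dpi cryoinjury 1, a library where col7a1 was at 0, and lay at or under 3.58 CPM elsewhere.

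col17a1b encodes a chain of type XVII collagen, the transmembrane collagen of hemidesmosomes, which tie basal epithelial cells to the basement membrane. Its level was 0 in 1 dpi shams 1 and 3 and 0.0658 CPM in sham 2. In 1 dpi resection it was 15.5, 22.9 and 18.9 CPM, and in 1 dpi cryoinjury 26.0 and 4.6 CPM. No injured library overlapped sham. The log2 fold change was 9.39 after resection (SE 1.75, edgeR adjusted p = 0.0316) and 8.88 after cryoinjury (SE 3.38, adjusted p = 0.571). DESeq2 called the cryoinjury change as well (adjusted p = 0.0028). Without sham 2 the resection call held (adjusted p = 0.0443), and without any other 1 of the 6 libraries the adjusted p was between 0.0518 and 0.0964.

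On later days col17a1b was low in every group. At 5 dpi col17a1b was at 0.741 and 0.803 CPM in sham, 0.0708 and 0.298 CPM after resection, and 0 and 0.766 CPM after cryoinjury. Both resection libraries lay under both shams, as for 14.2% of all genes, yet the log2 difference of -2.05 (SE 2.83, edgeR adjusted p = 1) was smaller than its error, and for cryoinjury it was -0.95 (SE 3.07). At 14 dpi the shams had 1.15, 0.1 and 1.5 CPM in round 1 and 0 in round 2, against 0, 0.394 and 0.298 CPM after cryoinjury, within the range of the shams and too few to test. The resection effect at 5 dpi minus that at 1 dpi was -11.29 on the log2 scale (SE 2.81, unadjusted p = 0.00099), but 10.5% of all genes tested had an unadjusted p under 0.05 in that direction and the adjusted p was 0.278 in edgeR. In that interaction 0 of 8 members passed in edgeR, 2 had an unadjusted p under 0.05, and DESeq2 called 2, with 1068 of 19166 genes in all. For col7a1, which is among the 8, the shams were at 0 on both days, so this test could not decide. Its mean after resection was 165 CPM at 1 dpi and 2.85 CPM at 5 dpi.

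Epidermal keratinocytes express both of these genes, and the libraries in which they were high were also those with high epidermal markers. The 10 markers of epidermis summed to 539 to 1782 CPM in the 1 dpi shams, 3157 to 6400 CPM in 1 dpi cryoinjury and 2928 to 5309 CPM in 1 dpi resection. In all 13 later libraries the sum was 137 to 730 CPM. Of the 10 markers, 8 were called higher in 1 dpi resection and 4 in 1 dpi cryoinjury, and none lower. The keratin gene krt4 made up most of the 1 dpi sham sums, at 472 to 1667 CPM. Both injuries overlapped sham for krt4, with 378 to 916 CPM after resection and 1195 to 2337 CPM after cryoinjury. The basal keratin gene krt5 was at 0.0165 to 1.13 CPM in the 1 dpi shams and at 1055 to 2230 CPM in the 5 injured libraries of that day. The adhesion gene epcam went from at most 0.0402 CPM to between 23.4 and 73.5 CPM, and the claudin gene cldnb, at 0 in all 3 shams, to between 33.4 and 127 CPM. The part of epidermal RNA in the col7a1 and col17a1b results was not tested.

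**Figure D3:**
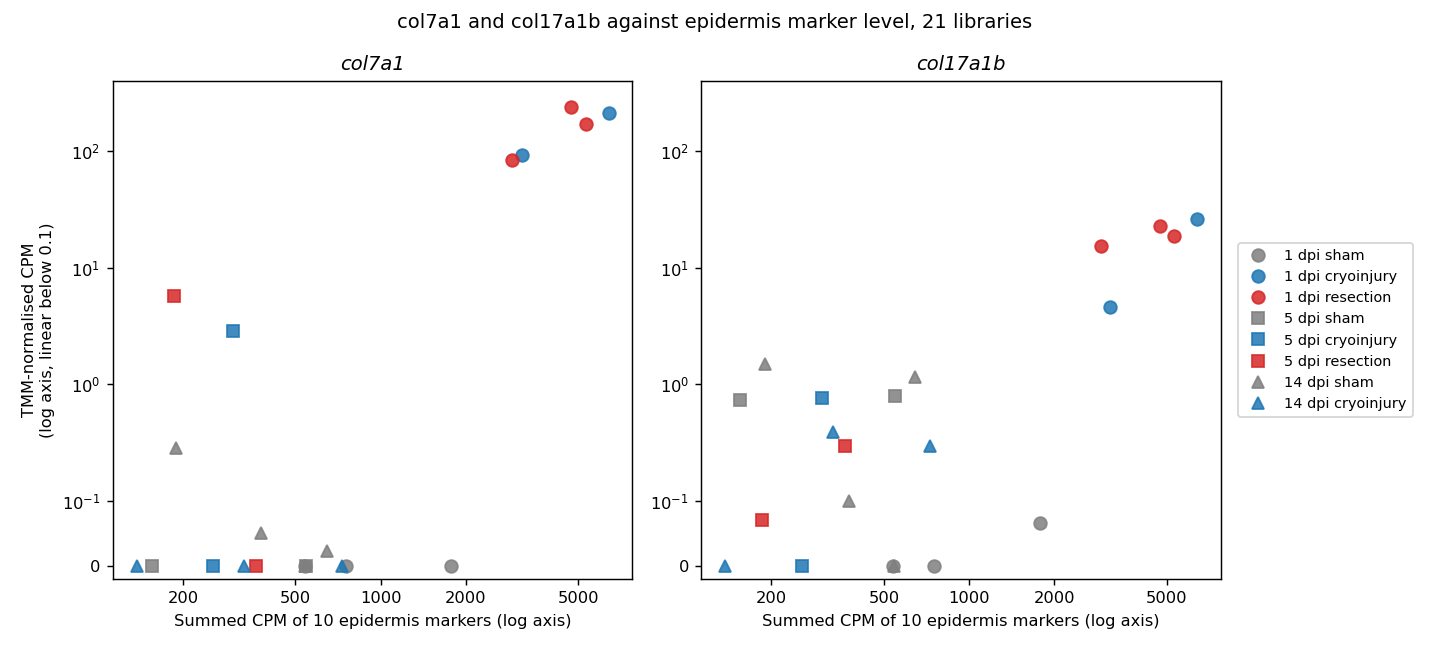
Level of col7a1 (left) and col17a1b (right) in each of the 21 libraries against the summed CPM of 10 epidermis markers, both axes on a log scale (the vertical axis linear below 0.1); colours and symbols stand for the 8 groups. The 5 injured libraries of 1 dpi sit apart at the upper right, with marker sums from 2928 to 6400 CPM, and the other 16 libraries show no col17a1b above 1.5 CPM.

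As the 5 injured libraries of 1 dpi stood apart from the other 16 for both genes, no correlation over all libraries is given for the pair. Over the 13 libraries of 5 and 14 dpi, col7a1 and col17a1b had a Pearson r of -0.03 on log2(CPM + 1) and a Spearman rho of 0.299, as a description of libraries that share group and depth. Among 13 matched genes of hemidesmosomes and basement membranes (of 18 symbols listed), 2 of 11 tested were higher after 1 dpi resection, where 11.3% of all genes were, namely lamb3, a chain of the epithelial laminin, with a log2 fold change of 11.35 (SE 2.17), and itgb4, the hemidesmosomal integrin chain, with 3.21 (SE 0.77), both at an edgeR adjusted p of 0.0316. After 1 dpi cryoinjury neither passed (edgeR adjusted p = 0.571 for both). There lamb3 had 10.82 (SE 4.01, unadjusted p = 0.016) and itgb4 2.94 (SE 1.03, unadjusted p = 0.0104). Of the list, 2 of 11 tested had such a p and were higher, against 4.1% of all genes. At 5 dpi itgb4 had log2 values of -3.07 after resection (SE 1.42, unadjusted p = 0.0482) and -4.68 after cryoinjury (SE 1.42, unadjusted p = 0.0041), neither past the adjusted threshold. Both were chosen for mention after their values were seen. The list's median was 0.39 after 1 dpi resection and -1.18 after 5 dpi resection, where the medians over all genes were 0.27 and 0.08.

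The gene col11a1a encodes a chain of type XI collagen, a minor fibrillar collagen known for setting the diameter of cartilage fibrils. At 1 dpi it was at 0.161 CPM in sham 1 and 0 in shams 2 and 3. After cryoinjury it was 1.79 and 4.85 CPM, and after resection 11.7, 46.2 and 46.5 CPM. The 3 groups did not overlap, and resection was the highest. The log2 fold change against sham was 9.56 after resection (SE 1.83, edgeR adjusted p = 0.0316, between 0.0518 and 0.0964 without any 1 of the 6 libraries) and 5.78 after cryoinjury (SE 3.24, adjusted p = 0.843). Compared directly, resection was higher than cryoinjury in 3 of 3 libraries by 3.47 on the log2 scale (SE 0.94, unadjusted p = 0.00699), which did not pass after adjustment (adjusted p = 0.0841, between 0.000908 and 0.487 over 11 alternatives).

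At 5 dpi col11a1a was near its floor in sham, at 0.0926 and 0.107 CPM. After resection it was 11.8 CPM in replicate 1, as high as in 1 dpi resection 2, and 0 in replicate 2. After cryoinjury it was 0 in replicate 1 and 1.28 CPM in replicate 4. One library of each injured group thus carried the counts and the other had none. col11a1a was not tested against sham at this day. From pooled counts, 333 against 4, the resection libraries had an 80.5-fold higher level, with an exact 95% interval of 31.2 to 297 that covers counting error only. All 333 counts were in resection 1, and without it the level was 0.

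By 14 dpi col11a1a was the member with the clearest separation. It stood at 18.6, 3.51 and 1.01 CPM in cryoinjury 1, 2 and 3, against 0.0469, 0.401 and 0.0714 CPM in the round 1 shams and 0 in the round 2 sham. Every cryoinjury library was above every sham, which held for 1 of 4 tested members and for 4.28% of all genes tested. The mean was 59.3-fold higher, with a log2 fold change of 5.89 (SE 1.73, unadjusted p = 0.0046, as for 3.02% of all genes in that direction). The adjusted p was 0.642 in edgeR and 0.00989 in DESeq2, and it lay between 0.00989 and 1 over 13 alternatives. Without cryoinjury 1, the library with the highest level, the value was 4.06 (unadjusted p = 0.0772). With round as a covariate it was 10.70 (unadjusted p = 0.0227, adjusted p = 0.755), and within round 2 alone there was 1 sham, at 0. When 5 and 14 dpi were fitted together with day as a term, injury against sham gave 5.46 (SE 1.71, unadjusted p = 0.00429, edgeR adjusted p = 0.623), where 3% of all genes had an unadjusted p under 0.05 in that direction. In that joint fit 0 of 7 tested members passed in edgeR, 1 had an unadjusted p under 0.05, and DESeq2 called 1, with 116 of 18727 genes in all.

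The summed fibroblast markers and a number of collagen genes stood higher in the same libraries. The 7 markers of fibroblasts and epicardium summed to 421 to 967 CPM in the 14 dpi shams and 975 to 4798 CPM after cryoinjury, and the highest sum was in cryoinjury 1, the library highest in col11a1a. Most of the sum was type I collagen, with col1a1a at 1896 and col1a2 at 2159 CPM in cryoinjury 1. Of the 7, 4 were higher at an unadjusted p under 0.05 in edgeR, against 3.02% of all genes. In 2 of the 7, col1a1a and tcf21, every cryoinjury library lay above every sham, against 4.28% of all genes. The others, col1a2, pdgfra, dcn, wt1b and lum, overlapped sham. The 11 macrophage marker IDs summed to 149 to 238 CPM in sham and 389 to 933 CPM after cryoinjury. Most of this was cd74a, at 117 to 177 CPM in sham and 317 to 778 CPM after cryoinjury. Of the 9 tested IDs, 2 were higher and 1 lower at an unadjusted p under 0.05 in edgeR, where 3.02% of all genes were higher. The part of either cell type in the col11a1a result was not tested. The paralogue col11a1b had the cryoinjury libraries in the same order, with 38.1, 11.2 and 4.47 CPM after cryoinjury, 0, 0.150 and 0.785 CPM in the round 1 shams and 0.468 CPM in the round 2 sham. Its log2 difference was 5.72 (SE 1.38, unadjusted p = 0.00111, edgeR adjusted p = 0.386). Genes this alike can share reads, and how far these 2 do was not tested.

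**Figure D4:**
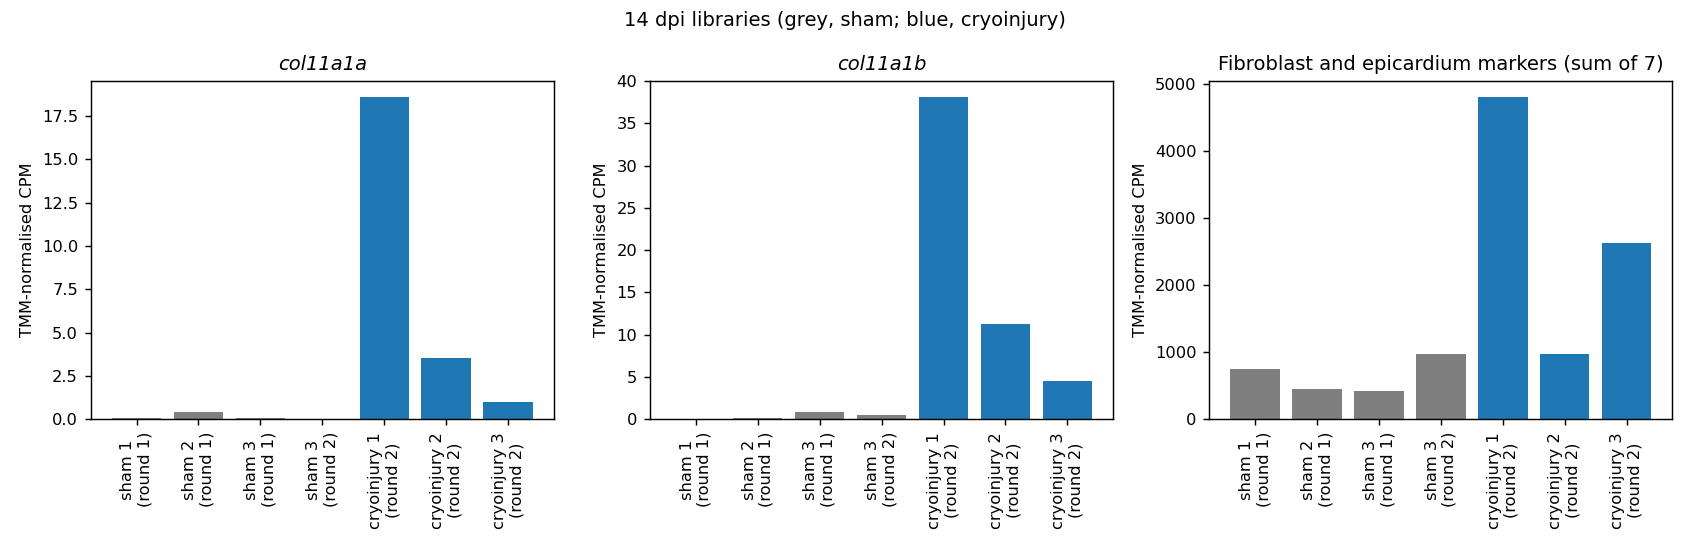
Level of col11a1a, of its paralogue col11a1b and of the sum of 7 fibroblast and epicardium markers in each 14 dpi library, as TMM-normalised CPM with bars from 0; grey bars are shams and blue bars cryoinjury. In all 3 panels cryoinjury 1 of round 2 is the highest library (18.6, 38.1 and 4798 CPM), and for the marker sum cryoinjury 2 (975 CPM) is close to the round 2 sham (967 CPM).

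A list of 49 other collagen genes was examined beside the members. It shares col1a1a and COL1A2 (col1a2 above) with the fibroblast and epicardium markers, so the results of these lists are not separate. At 14 dpi none of the 30 tested passed in edgeR and 8 passed in DESeq2, but 18 had an unadjusted p under 0.05 and all 18 were higher after cryoinjury, against 3.02% of all genes. In 16 of the 30 every cryoinjury library lay above every sham, against 4.28% of all genes. The median log2 fold change of the list was 1.71, while that of all genes tested was -0.01. Among the 18, chosen for mention after their values were seen, were the type I genes col1a1a at 2.37 (SE 0.54, unadjusted p = 0.000737) and COL1A2 at 2.43 (SE 0.56), the type V gene COL5A1 at 2.32 (SE 0.54) and the basement membrane gene COL4A1 at 1.71 (SE 0.47). The number with an unadjusted p under 0.05 and higher was 6 with round as a covariate and 12 without cryoinjury 1. Of the members, only col11a1a was among the genes with such a p at 14 dpi. At 5 dpi 0 of 30 other collagens after resection and 0 of 27 after cryoinjury passed in edgeR, with 1 each at an unadjusted p under 0.05, which was col5a3a both times and lower. Its shams stood at 23.2 and 238.2 CPM, the higher being 5 dpi sham 3. The list's median log2 fold change at 5 dpi was 0.305 after resection and -0.181 after cryoinjury. It was 1.19 and 1.28 without sham 3, but -0.19 and -0.03 without sham 2, each fit leaving 1 sham.

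Type V collagen co-assembles with type I and limits fibril width, and col5a3b encodes its alpha 3 chain. It was the least detected member. At 1 dpi it was at 0, 0.0165 and 0.0607 CPM in sham, 0.0427 and 0.174 CPM after cryoinjury, and 1.46, 6.04 and 1.75 CPM after resection. Resection stood above the other groups and cryoinjury overlapped sham. The log2 fold change after resection was 7.10 (SE 1.84, edgeR adjusted p = 0.0372), from 294 counts, 196 of them in resection 3, against 2 in sham. The call was kept in 2 of 11 alternatives, and without any 1 of the 6 libraries the adjusted p was between 0.0541 and 0.112. Resection against cryoinjury gave 4.84 (SE 1.68, edgeR adjusted p = 0.111).

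At 5 dpi col5a3b was found in 1 library, resection 2, with 1.64 CPM, while resection 1 had 0.0354 CPM, both cryoinjury libraries 0 and the shams 0.0926 and 0 CPM. At 14 dpi it was under the floor throughout, at 0.0391, 0.0358 and 0.0596 CPM after cryoinjury and at most 0.150 CPM in sham. Differences there were not detectable at this depth. Its paralogue col5a3a was found in all 21 libraries, with group means of 5.78 CPM in 14 dpi sham and 36.7 CPM in 14 dpi cryoinjury. Most type V alpha 3 counts of these 14 dpi groups thus came from the other copy. In 1 dpi resection 3 col5a3b was the higher, with 196 counts against 83 for col5a3a.

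In vertebrates type XXVII collagen is a fibrillar collagen of developing cartilage, and in zebrafish col27a1b is needed in the notochord and spine. It was the most widely detected member, above the floor in 8 of 9 shams and 11 of 12 injured libraries. At 1 dpi the shams had 2.21, 25.7 and 5.77 CPM, resection 3.49, 4.72 and 20.7 CPM, and cryoinjury 0.0427 and 0.209 CPM. Resection lay within the sham range, at a log2 difference of -0.05 (SE 1.30, edgeR adjusted p = 0.994). Both cryoinjury libraries were under every sham, by -6.60 on the log2 scale (SE 3.43, unadjusted p = 0.0706). The adjusted p was 0.775 in edgeR and 0.0066 in DESeq2, and it lay between 0.0066 and 1 over 10 alternatives. Cryoinjury lay under every sham for this member and for 7.37% of all genes tested. Against cryoinjury, resection was higher in 3 of 3 libraries, by 6.27 (SE 1.68, unadjusted p = 0.00663, edgeR adjusted p = 0.0841).

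On later days col27a1b varied as much within groups as between them. At 5 dpi it was at 5.51 and 2.68 CPM in sham, 13.4 and 3.06 CPM after resection, and 15.4 and 3.96 CPM after cryoinjury. The log2 values of 0.99 after resection (SE 1.67) and 1.34 after cryoinjury (SE 2.30) were smaller than their errors. At 14 dpi the shams had 16.2, 1.5 and 0 CPM in round 1 and 15.6 CPM in round 2, against 12.2, 5.62 and 3.28 CPM after cryoinjury. These ranges overlapped, with a log2 value of -0.21 (SE 1.34, edgeR adjusted p = 0.999).

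Type IX collagen, of which col9a2 encodes a chain, sits on the surface of cartilage fibrils. A single library held most of its counts, 1 dpi cryoinjury 2 with 62.5 CPM, whereas 1 dpi cryoinjury 3 had 0.0697 CPM. The 1 dpi shams were at 0, 0 and 0.0607 CPM, and 1 dpi resection was at 0.499, 6.32 and 0.227 CPM. Every injured library was above every sham at this day, but cryoinjury 3 had 2 counts and sham 3 had 1, both under the floor. Among tested genes such separation held for 26.2% after resection and 15% after cryoinjury. The gene did not pass the count filter in either comparison and was not tested against sham. Of the 227 counts in resection, 205 were in resection 3. The same cryoinjury library had the highest level of the cartilage proteoglycan gene acana, 60.1 CPM against 0.209 CPM in cryoinjury 3. The other matched cartilage and bone markers matn1, sp7 and runx2b were at 0, 0.0853 and 0.0427 CPM there. Other type IX chains, COL9A1 and col9a3, had 0 and 2 counts in that library. It also had the highest sum of skeletal muscle markers, 23397 CPM against 3795 CPM in cryoinjury 3. What these markers contribute to the col9a2 level was not tested. Resection against cryoinjury gave -3.65 on the log2 scale (SE 2.13, edgeR adjusted p = 0.285), and 5.06 without cryoinjury 2.

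At 5 dpi col9a2 was the member that separated cryoinjury from sham. It stood at 3.06 and 4.17 CPM after cryoinjury, 0.185 and 0.482 CPM in sham, and 0 and 0.969 CPM after resection. Both cryoinjury libraries were above both shams, which held for 1 of 5 tested members and for 13.9% of all genes. The log2 difference was 3.49 (SE 3.27, unadjusted p = 0.30, edgeR adjusted p = 1), within its error. At 14 dpi col9a2 was at 0, 0.250 and 1.37 CPM after cryoinjury and at 0.0235, 0.752 and 1.21 CPM in the round 1 shams and 0 in the round 2 sham, fully overlapping, with a log2 value of 0.14 (SE 2.07) that was 6.87 with round as a covariate (unadjusted p = 0.176).

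Type X collagen is a network-forming collagen, made in mammals by hypertrophic chondrocytes, and col10a1b is 1 of the zebrafish copies. At 1 dpi it was at 0 in all 3 shams, at 1.75 and 5.61 CPM after cryoinjury and at 15.3, 6.82 and 2.53 CPM after resection. Both injuries were above sham and overlapped each other. Against 3 counts per sham library resection was at least 69.9-fold higher (edgeR adjusted p = 0.0316, a call kept in 2 of 11 alternatives and lost without any 1 of the 6 libraries, at 0.0518 to 0.0964), and cryoinjury was at least 31.4-fold higher (adjusted p = 0.571). Resection against cryoinjury gave 1.26 (SE 1.2, adjusted p = 0.515).

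The highest col10a1b level of all came at 5 dpi. Cryoinjury 4 had 39.8 CPM and cryoinjury 1 had 0, resection 1 and 2 had 4.50 and 14.2 CPM, and the shams 1.85 and 1.98 CPM. Both resection libraries were above both shams, whereas the cryoinjury libraries fell on either side of them. Such separation was seen for 2 of 4 tested members after resection (col10a1b and COL26A1) and for 17.1% of all genes. The log2 fold change was 2.29 after resection (SE 1.76, unadjusted p = 0.214) and 3.41 after cryoinjury (SE 2.44, unadjusted p = 0.179), both with an edgeR adjusted p of 1. Without cryoinjury 4 the latter was -8.13. At 14 dpi only 1 sham (0.357 CPM, round 1 sham 3) and 1 cryoinjury library (1.07 CPM, cryoinjury 3) had any col10a1b. The resection effect at 5 dpi minus that at 1 dpi was -8.55 (SE 2.74, unadjusted p = 0.00745, edgeR adjusted p = 0.283), where the 1 dpi shams were at 0 and the 5 dpi shams were not. For 5 and 14 dpi together, injury against sham gave 2.5 (SE 1.55, unadjusted p = 0.122).

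COL26A1 encodes type XXVI collagen, a non-fibrillar collagen known in mouse from the gonads. Its highest level was in a sham, 1 dpi sham 2 with 20.1 CPM, while 1 dpi shams 1 and 3 were at 0. Resection at 1 dpi gave 2.5, 3.95 and 11.7 CPM, and both cryoinjury libraries were at 0. Resection against sham thus rested on sham 2, with a log2 difference of -0.01 (SE 2.33, edgeR adjusted p = 0.999) and, without that library, 10.38 (unadjusted p = 0.00317). Against cryoinjury, resection was at least 52.0-fold higher (unadjusted p = 0.00283, edgeR adjusted p = 0.0725, higher in 3 of 3 libraries). COL26A1 was not tested between cryoinjury and sham at 1 dpi.

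At 5 dpi COL26A1 was at 6.23 and 1.04 CPM after resection, 3.51 and 0.0425 CPM after cryoinjury, and 0.972 and 0 CPM in sham. Resection lay above sham, by little in replicate 2, with a log2 value of 2.87 (SE 2.64, unadjusted p = 0.295), and cryoinjury overlapped sham at 1.96 (SE 3.36). At 14 dpi it was at 0, 2.93 and 3.58 CPM after cryoinjury, 0, 0 and 1.29 CPM in the round 1 shams and 2.34 CPM in the round 2 sham. The groups overlapped, with a log2 value of 1.25 (SE 2.15) that was -0.11 with round as a covariate.

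Set against each other at 1 dpi, the 2 injuries differed for no member after adjustment (0 of 8 in edgeR, where 0.213% of all genes were higher after resection and 1.87% lower). An unadjusted p under 0.05 was reached by 4 members, col11a1a, COL26A1, col27a1b and col5a3b, all higher after resection, as for 19.4% of all genes. The same 4 had every resection library above both cryoinjury libraries, as for 32.4% of all genes, and DESeq2 called the same 4, along with 4474 of 17338 genes in all. Without 1 dpi cryoinjury 2 edgeR called 4 members, all higher, with col17a1b in place of col5a3b, and without cryoinjury 3 it called col11a1a, COL26A1, col27a1b and col5a3b and also col9a2, which was lower. Those fits called 4072 of 19593 and 7144 of 19582 genes, against 362 of 17338 with both libraries. At 5 dpi 0 of 6 tested members passed in edgeR between resection and cryoinjury, with 0 at an unadjusted p under 0.05 (3.84% of all genes higher, 1.35% lower) and 0 in DESeq2, and 0% of all genes passed. Of the tested members, only col9a2 separated there, lower in both resection libraries, as for 14.7% of all genes. The untested col5a3b had 1.64 and 0.0354 CPM after resection and 0 in both cryoinjury libraries, the lower of these under the floor. Without 5 dpi cryoinjury 4 edgeR called 1 member, col10a1b, and 1437 of 16402 genes.

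Between days, the cryoinjury effect at 5 dpi against that at 1 dpi was called for 0 of 7 tested members in edgeR (0 at an unadjusted p under 0.05, against 2.16% of all genes higher and 3.57% lower, and 2 in DESeq2, with 313 of 16724 genes in all), where 0.00598% of all genes were called lower. From 5 to 14 dpi it was called for 0 of 6 tested members in edgeR, as for 0% of all genes (0 at an unadjusted p under 0.05, against 5.06% higher and 2.38% lower, and 0 in DESeq2). From 1 to 14 dpi, besides the call for col7a1, col27a1b and COL26A1 had an unadjusted p under 0.05 with a higher effect at 14 dpi, as for 5.51% of all genes. Likewise col9a2 and col17a1b had such a p with a lower effect, which with col7a1 makes 3 of 7 members against 6.53% of all genes. For COL26A1 the 1 dpi side rested on sham 2 at 20.1 CPM, as shams 1 and 3 and both cryoinjury libraries were at 0. Its log2 value ranged from 1.24 to 23.73 over 15 alternatives. For col9a2, 1 dpi cryoinjury 2 had 62.5 CPM and cryoinjury 3 had 0.0697 CPM, and the value ranged from -12.72 to -1.56. At 14 dpi itself col27a1b stood at -0.21 (SE 1.34) against sham. DESeq2 called 4 members, 1 higher and 3 lower, with 1040 of 17907 genes in all. These comparisons share their 1 dpi or 5 dpi libraries. As the 1 and 5 dpi shams were all at 0 for col7a1, the test from 1 to 5 dpi could not decide for that member. Its mean after cryoinjury was 152 CPM at 1 dpi and 1.43 CPM at 5 dpi.

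For each member the 3 most alike genes were sought by Pearson r of log2(CPM + 1) over the 21 libraries, among 16201 genes with a symbol and at least 1 CPM in 3 libraries. For col7a1 the closest was cdh26.2 (r = 0.971, and 0.68 over the 13 later libraries), followed by wu:fa92h10 and wu:fb18f06, and for col17a1b dbnla (0.972), ms4a17a.4 and vgll4l. Over the 13 later libraries r was -0.01 for col7a1 with wu:fa92h10 and 0.225 for col17a1b with dbnla. For col11a1a they were gna15.1 (0.864), ms4a17a.10 (0.855, and 0.882 over the later libraries) and cers2b, and for col5a3b st6galnac1.1 (0.971), zgc:194930 and RPRM. Pearson r was lower for col10a1b (cpped1, 0.847, then dicp2.1), for COL26A1 (si:ch73-52p7.1, 0.832, then si:ch211-198p11.6 and MBOAT2) and for col27a1b (METTL5, 0.768, then NAA60 and RAD17). By Spearman rho, however, col10a1b with cpped1 stood at 0.877 and col11a1a with gna15.1 at 0.577. For col9a2 they were GGT5 (2 of 2) at 0.882, zgc:66479 and pvalb7 (0.868, but a Spearman rho of 0.23), a parvalbumin gene that reached 4412 CPM. Among the pairs of members, the highest r over the 13 later libraries was 0.592, for col7a1 with col10a1b, with a Spearman rho of 0.29. In those libraries col7a1 was above 0.286 CPM only in 5 dpi resection 1 and 5 dpi cryoinjury 4. These values describe shared libraries and depth, with no test.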

How the data were processed

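The authors captured biotin-tagged nuclei on streptavidin beads, made libraries with SMART-seq v4, mapped paired-end reads of 80 bases to danRer10 with STAR 2.4.2a, per the labels and the submitters' processing notes, and counted them on genes with featureCounts. They deposited raw counts per gene for all samples in 1 table without gene positions. No molecular identifiers are described, so floors and intervals cover counting error only. The labels give the strand as reverse, whereas the kit does not mark strand and the counting is stated only as with default settings, so reads of overlapping or antisense genes cannot be told apart. The table holds 23 columns, of which 2 match no sample and were not used. Left out was 1 gene with missing values.

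Each comparison was fitted on its own groups with edgeR 4.0.16 (quasi-likelihood test, TMM, filterByExpr) with limma 3.58.1 in R 4.3.3. An interaction term tested whether an effect differed between days, and 5 and 14 dpi were also fitted together with day as a term. Adjusted p-values (Benjamini-Hochberg) cover all genes tested, with a threshold of 0.05. The SE is the log2 fold change over the square root of F. Bounds use 3 counts per library, averaged over the group. The code was tested on simulated data. Alternatives were DESeq2 1.42.0, its size factors in edgeR, other count filters, a fit of all libraries, replicate numbers as a block, round as a covariate and each library left out.

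The members, gene lists and tests were chosen with earlier results of these data known. Named are the 8 members, their 3 most alike genes each (1 of which is not reported here), marker genes that moved with a member, and other genes stated to be chosen after their values were seen. Gene names came from the authors' lists and a table of Ensembl IDs, which together name 26305 IDs, and 7 of the 8 members are in the latter. Of the marker lists, 6 of 8 symbols of macrophages, 10 of 10 of epidermis, 7 of 8 of fibroblasts, 4 of 6 of cartilage and bone, 3 of 5 of cardiomyocytes and 6 of 6 of skeletal muscle were matched, and 13 of 18 of hemidesmosome and basement membrane partners and 11 of 22 of collagen processing.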

Additional observations from a re-analysis of the deposited data

Results flagged for a closer look

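In the 14 dpi shams, round 1 sham 3 stood apart for col10a1b, with 0.357 CPM (5 counts) while the other 3 shams were at 0. Of the 7 members that could be examined in this way in the 4 shams it was the only one. With the other 3 shams at 0, any level above the floor in 1 sham is marked by this rule. The mark therefore carries no chance rate and shows only that a rare transcript was seen in 1 sham. The effect of cryoinjury on col7a1 differed between days in the interaction test, by -19.22 on the log2 scale at 14 dpi compared with 1 dpi (edgeR adjusted p = 0.00472). All 1 dpi shams and all 14 dpi cryoinjury libraries were at 0, so the fitted size depends on the prior count and is no bound. At 1 dpi the direction rests on 212 and 92.6 CPM in cryoinjury against 0 in sham. At 14 dpi it rests on 1, 1 and 4 counts in the round 1 shams (at most 0.286 CPM) against 0 in cryoinjury. The call thus depends on sham counts near the floor.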

How the results depend on the processing

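Alternatives were tried for each comparison, and counts of members called follow, with those over libraries left out 1 at a time as a range. After 1 dpi resection 5 members were called, 3 without a filter beyond 1 count, 3 with all 21 libraries in 1 fit, 0 with at least 10 counts in every library (fewer genes tested) and 0 to 2 with a library left out. DESeq2 called 3 after 1 dpi cryoinjury, 2 higher and 1 lower, with 513 of 13020 genes in all. DESeq2 also called 1 at 14 dpi, 4 between resection and cryoinjury at 1 dpi and 1 for 5 and 14 dpi together. For the effect of resection from 1 to 5 dpi and of cryoinjury from 1 to 5 and 1 to 14 dpi its counts were 2, 2 and 4. Between resection and cryoinjury it was 1 without the filter and 0 to 5 with a library left out at 1 dpi, and 0 to 1 at 5 dpi. For the cryoinjury effect from 1 to 14 dpi it was 0 to 1.

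Some log2 values given in the report changed sign. After 1 dpi resection COL26A1 was 0.008 in DESeq2, 0.006 with its size factors and -0.92 to 10.38 with a library left out, and col27a1b was 0.24 with at least 10 counts in every library and -1.27 to 1.39. With a library left out at 5 dpi, col27a1b ranged from -0.35 to 1.68 after resection, and after cryoinjury col27a1b from -0.004 to 2.04, col17a1b from -6.83 to 0.033, col10a1b from -8.13 to 4.42 and COL26A1 from -3.31 to 8.17. At 14 dpi col9a2 ranged from -1.97 to 0.68 and col27a1b from -0.93 to 0.31, and with round as a covariate they were 6.87 for col9a2 and -0.11 for COL26A1. Between resection and cryoinjury at 1 dpi the ranges were -0.29 to 0.90 for col7a1, -6.30 to 5.06 for col9a2 and -0.36 to 2.13 for col17a1b. The cause was not tested.

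With the replicate number as a block, 2 members were called after 1 dpi resection, with 53 of 15764 genes in all. COL26A1 was 2.03 there and col9a2 was -0.30 at 14 dpi. Same-numbered libraries had deviations correlated at -0.063 to 0.03. As deviations were taken from means of 2 to 4 libraries, this check cannot decide whether the numbers pair the libraries. At 5 dpi the groups share fewer than 2 numbers, so no block could be fitted. Where a library left out leaves 1 in a group, that library is assumed to vary like the others. Depth limits col5a3b most, which was above the floor of 3 counts in 5 of 21 libraries.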

Other observations

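Enzymes that process collagen were followed as a list of 22 symbols, of which 11 were matched. After 1 dpi resection 2 of 10 tested were higher in edgeR, where 11.3% of all genes were, and the list's median was -0.05 against 0.27 for all genes. The 2 were p4ha1a, a prolyl hydroxylase subunit, and lox, the lysyl oxidase that crosslinks fibrils, with log2 fold changes of 9.84 (SE 2.28) and 8.58 (SE 2.22) and adjusted p-values of 0.0367 and 0.0374. After 5 dpi resection 0 of 10 tested passed, with 0 at an unadjusted p under 0.05 in edgeR, but 7 of the 10 had both resection libraries above both shams, against 17.1% of all genes. After 5 dpi cryoinjury this held for 4 of 10, against 13.9% of all genes. The medians of the list were 1.24 and 2.68 on the log2 scale, those of all genes 0.08 and -0.01. At 14 dpi loxl2a had a value of 1.99 (SE 0.59, unadjusted p = 0.00486, edgeR adjusted p = 0.642), and the list's median was 0.12. These genes were chosen for mention after their values were seen. COL8A1, another network-forming collagen, had group means of 8.11 CPM after 5 dpi resection, 5.01 CPM after 5 dpi cryoinjury and 3.18 CPM after 14 dpi cryoinjury, against 0.0926 CPM in 5 dpi sham and 0.181 CPM in 14 dpi sham. For injury against sham over both days its log2 difference was 4.87 (SE 1.75, unadjusted p = 0.0111, edgeR adjusted p = 0.642). COL8A1, likewise chosen after its values were seen, was above the floor in 8 of 21 libraries. In that edgeR fit 10 of 35 tested other collagens had an unadjusted p under 0.05 and were higher, against 3% of all genes.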
